A study of Mus musculus with 8 samples.

Results

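The genes described here are 8 transcription factor genes of chromosome 4 that act in the nervous system or the neural crest: Pou3f1, Pou3f2, Nfia, Nfib, Pax7, Dmbx1, Dmrta1 and Dmrta2. They were taken from a fixed list of names, and all 8 were found among the 1328 protein-coding genes of the chromosome in RefSeq (GRCm38.p6, the assembly of mm10) and among the 1301 that overlapped a measured position. Repli-seq was used to measure replication timing in mouse embryonic stem cells of 2 kinds. The control cells were JM8N4, an established mouse embryonic stem cell line. The other cells lacked an enhancer of Klf4, which encodes a zinc finger factor of naive pluripotency. Whether the deletion was on both alleles, where it lies and how many clones were used are not stated in the labels. Repli-seq marks new DNA with BrdU, an analog of thymidine, here for 2 h, sorts the cells by how much DNA they hold into an early and a late S-phase part and sequences the marked DNA of each part. Each of the 4 profiles, 2 per genotype, combines 1 early and 1 late library, and 40000 cells went into each fraction.

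The deposited value is a timing score at each 5 kb of chromosome 4, scaled by the authors to a common interquartile range, which was 4.60 in all 4 profiles. A score above 0 is called early here and a score below 0 late. This direction was read from the density of protein-coding genes, at 15.1 per Mb in bins of positive mean score and 2.92 per Mb in the others. The median score of positions was -0.79 and -0.37 in the controls and -0.73 and -0.21 in the deletion profiles. Early and late calls near 0, and the places where 0 is crossed, depend on these offsets. The score of a gene is the mean over the bins that overlap it. The files hold no read counts, so the depth behind a score is unknown, and they hold no expression, so the stem cell state was not checked against marker genes. Klf4 itself scored 2.24 and 2.73 in the controls and 1.77 and 2.89 in the deletion profiles. At 3 adjacent positions, from 55465000 to 55475000, both controls had a score and neither deletion profile had one. The 8 genes lie between 26.8 Mb (Nfib) and 84.2 Mb (Pax7) from Klf4.

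Replication timing is the order in which parts of a chromosome are copied during S phase. Early domains are typically rich in genes and open chromatin, and late domains are poor in genes and often lie at the nuclear lamina. Many developmental genes that are silent in stem cells move between early and late domains when cells differentiate, and neural genes are a classic case. Pou3f1 (Oct6) and Pou3f2 (Brn2) encode POU domain factors of neural progenitors and of Schwann cells. Nfia and Nfib encode nuclear factor I proteins that act in gliogenesis and in brain and lung development. Pax7 encodes a paired box factor of the neural crest, the dorsal neural tube and muscle stem cells, Dmbx1 a paired-type homeobox factor of the midbrain, and Dmrta1 and Dmrta2 encode DM domain factors, of which Dmrta2 patterns the cortex.

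In stem cells the 8 genes spanned nearly the whole range of the chromosome. Of these genes, 6 were early in all 4 profiles, 2 (Nfia and Dmrta1) were late in all 4, and none changed sign between profiles. Over all 1301 genes, 1037 (79.7%) were early in every profile, 216 (16.6%) were late in every profile and 48 changed sign. The median control score of the 8 genes was 1.30, against 2.49 over all genes. From early to late the control means were ordered Dmbx1, Pou3f1, Pax7, Dmrta2, Nfib, Pou3f2, Nfia and Dmrta1. Most steps of this order held within each of the 4 profiles. The exceptions were Pou3f1 before Pax7, which held in 3 of 4 profiles with gaps from -0.061 to 0.39, and Dmrta2 before Nfib, which held in 2 of 4 with gaps from -0.39 to 0.25. These neighbours did not differ beyond their spread.

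**Figure D1:**
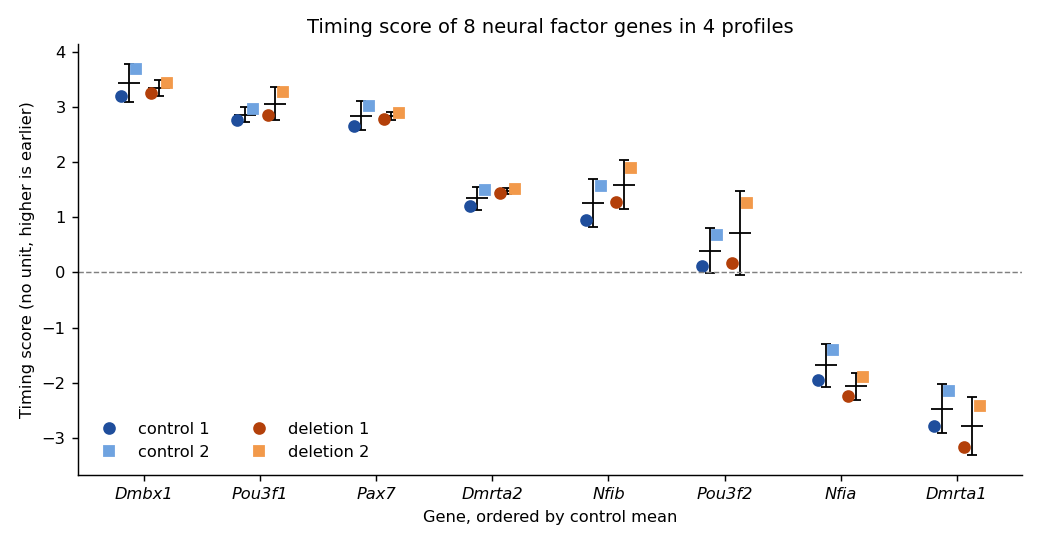
Timing score (vertical axis, no unit, early upward) of the 8 genes, ordered by control mean, in 2 control and 2 deletion profiles; black marks show the mean and SD of each genotype (n = 2). Nfia and Dmrta1 sit below 0 in all profiles, and control and deletion points overlap at every gene.

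The POU genes differed in their place on the chromosome. Pou3f1 (chromosome 4, 124657646 to 124660655) scored 2.76 and 2.96 in the controls and 2.85 and 3.28 in the deletion profiles. Those values are all well inside the early range. Within 1000 kb of the midpoint of Pou3f1 no 50 kb window centred at a multiple of 100 kb fell below 1.60 in any profile. The nearest position with a score below 0 was at least 1947 kb from that midpoint. The next gene, Utp11, which encodes a factor of ribosomal RNA processing, starts 17.6 kb above it and scored 2.72 ± 0.15 in control cells (SD, n = 2). On the other side 721 kb separate Pou3f1 from Rragc, a gene of amino acid sensing, and that gap was early too.

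Pou3f2 (chromosome 4, 22482095 to 22488366) scored 0.11 and 0.68 in the controls and 0.18 and 1.26 in the deletion profiles. It was the lowest of the 6 early genes, and the number 1 profiles of both genotypes put it close to 0. It lay on a timing slope. At 600 kb below the gene the score was 2.43 and 2.92 in the controls and 2.45 and 3.25 in the deletion profiles. At 500 kb above the gene it was -3.69 and -2.46 in the controls and -3.05 and -1.86 in the deletion profiles. The score crossed 0 on the higher-coordinate side of the gene's midpoint, at 37.3 and 112 kb in the controls and at 27.3 and 117 kb in the deletion profiles. The number 1 profiles of both genotypes thus crossed closer to the gene. Fbxl4, a gene of mitochondrial upkeep 48.0 kb below Pou3f2, scored 0.58 ± 0.65 in control (SD, n = 2). Above Pou3f2 no protein-coding gene follows for 2008 kb, until Mms22l, a gene of replication fork repair, which scored -0.36 ± 0.70 in the controls and 0.19 ± 0.72 in the deletion profiles (SD, n = 2 each). Within each profile Pou3f1 scored higher than Pou3f2 by 2.02 to 2.67.

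The nuclear factor I genes fell on opposite sides of 0. Nfib (chromosome 4, 82290173 to 82506751, 217 kb) scored 0.95 and 1.57 in the controls and 1.27 and 1.90 in the deletion profiles. Nfia (chromosome 4, 97578066 to 98118876, 541 kb) scored -1.95 and -1.41 in the controls and -2.23 and -1.90 in the deletion profiles. Nfib was thus early and Nfia late in every profile. Only 10 of the 1301 genes are at least as long as Nfia, itself included. Within each profile Nfib scored higher than Nfia, by 2.91 and 2.98 in the controls and by 3.50 and 3.80 in the deletion profiles. That gap did not overlap between genotypes, and its exact two-sided permutation p of 0.333 is the smallest that 2 profiles against 2 can give. Of the 3 pairs of related genes it was picked because of its values. The gap of the POU pair changed by -0.12 (exact two-sided permutation p = 1) and that of the DMRT pair by 0.45 (p = 0.667, exact permutation), with both overlapping between genotypes.

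Timing along Nfia was not a simple slope. The least-squares slope from low to high coordinates, the direction of transcription, was -0.16 and -0.098 per 100 kb in the controls and -0.23 and -0.085 in the deletion profiles. All 4 slopes pointed to later replication toward the 3 prime end, and they overlapped between genotypes (difference -0.026, exact two-sided permutation p = 1). Instead of a steady fall, each profile rose to an inner peak and then dropped to a trough. The peak lay 142 and 167 kb from the lower end of the gene in the controls and 207 and 152 kb in the deletion profiles. Its score was -1.49 and -0.98 in the controls and -1.28 and -1.29 in the deletion profiles. The trough followed at 447 and 442 kb in the controls and at 427 and 392 kb in the deletion profiles. It was lower than the peak by 1.19 and 0.99 in the controls and by 1.78 and 1.07 in the deletion profiles. The peak was late in all profiles, but it stood above the flank at lower coordinates as well, where the lowest score within 400 kb of the gene was -3.77 and -3.55 in the controls and -3.37 and -2.90 in the deletion profiles.

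The surroundings of Nfia differed on each side. At lower coordinates 791 kb without a protein-coding gene reach to Gm12695, at -3.19 ± 0.31 in the controls and -3.01 ± 0.34 in the deletion profiles (SD, n = 2 each). At higher coordinates Tm2d1, 236 kb away, scored 0.17 ± 0.39 and -0.054 ± 0.18 (SD, n = 2 each), with opposite signs in single profiles. At 1000 kb above the midpoint of Nfia the score was 2.53 and 2.76 in the controls and 2.50 and 2.95 in the deletion profiles. Nfia thus lay at the late end of a rise that crossed 0 at 469 to 604 kb from its midpoint.

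Timing along Nfib spanned fewer score units than along Nfia. Per 100 kb, Nfib was steeper in control 1 (0.44 against -0.16) and flatter in control 2 (0.045 against -0.098). Across the gene the control mean per position ran from 1.01 to 1.49, against -2.32 to -1.24 across Nfia. Its slopes from low to high coordinates were 0.44 and 0.045 per 100 kb in the controls and 0.18 and -0.053 in the deletion profiles. The sign was not shared by all profiles, and the genotypes overlapped (difference -0.18, exact two-sided permutation p = 0.667). With the gene cut into 5 parts of 43.3 kb, the control mean went from 1.04 ± 0.67 in the part at lowest coordinates to 1.46 ± 0.22 in that at highest coordinates, and the deletion mean from 1.47 ± 0.61 to 1.54 ± 0.32 (SD, n = 2 each). The rise was mostly that of control 1, from 0.57 to 1.30, while control 2 went from 1.52 to 1.61. Nfib sat on a local early shoulder. Its score 600 kb below the midpoint was -2.90 and -2.30 in control, and 500 kb above the midpoint it was -0.31 and 0.23. The next genes, Mpdz 847 kb below and Zdhhc21 292 kb above, scored -1.11 ± 0.12 and -0.020 ± 0.39 in control (SD, n = 2 each), both lower than Nfib.

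**Figure D2:**
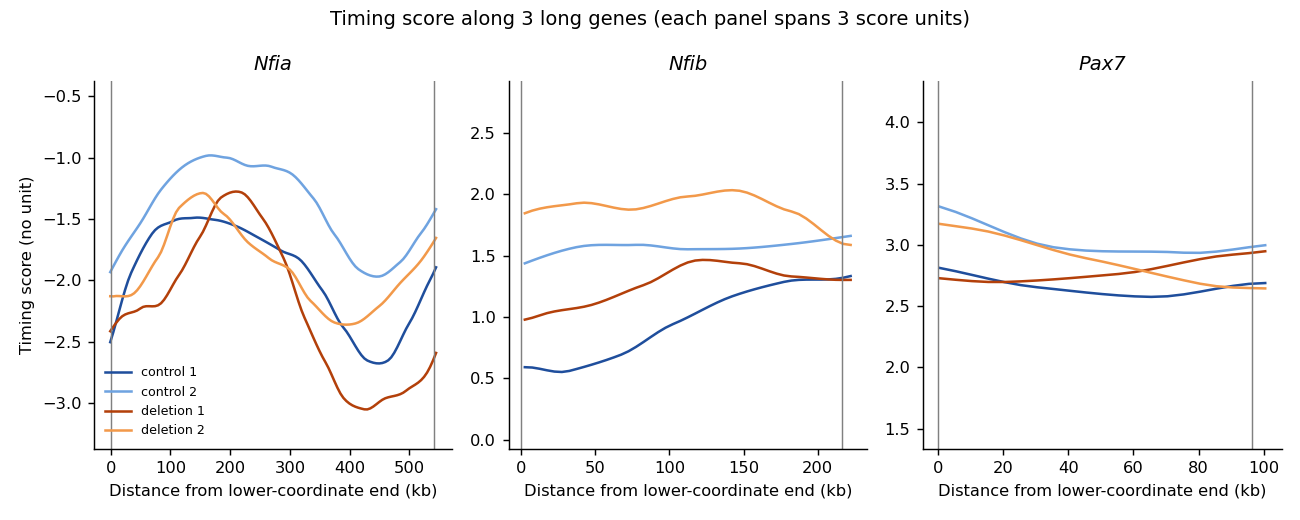
Timing score (vertical axis, no unit, 3 score units per panel) against distance from the lower-coordinate end in kb along Nfia, Nfib and Pax7, 1 line per profile, with grey lines at the gene ends. Along Nfia all 4 profiles peak between 142 and 207 kb and reach a trough between 392 and 447 kb, while the Nfib and Pax7 lines stay within narrower ranges.

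The homeobox genes Dmbx1 and Pax7 replicated early. Dmbx1 (chromosome 4, 115915119 to 115940597) scored 3.20 and 3.68 in the controls and 3.24 and 3.44 in the deletion profiles. By control mean it ranked 1 of 1301 genes, counted from the earliest, and by deletion mean it ranked 75. Rank 1 did not hold within control 1, where Hes5, a Notch effector gene, scored 3.41. Dmbx1 stood at the edge of a plateau. Its score 500 kb below the midpoint was -1.48 and -0.81 in the controls and -1.68 and -0.66 in the deletion profiles, and 0 was crossed 355 to 430 kb from the midpoint. Its neighbours 6430628N08Rik, 15.9 kb below, and Faah, a gene for a fatty acid amide hydrolase 56.1 kb above, scored 3.32 ± 0.12 and 3.30 ± 0.29 in control (SD, n = 2 each).

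Pax7 (chromosome 4, 139737059 to 139833530, 96.5 kb) scored 2.66 and 3.03 in the controls and 2.78 and 2.89 in the deletion profiles. The nearest position below 0 was at least 2702 kb from the gene's midpoint. Its slopes from low to high coordinates were -0.16 and -0.33 per 100 kb in the controls and 0.25 and -0.61 in the deletion profiles, so the deletion profiles differed in sign and enclosed both controls (difference 0.067, exact two-sided permutation p = 1). Across the gene the control mean per position stayed between 2.76 and 3.06. The neighbour at lower coordinates, the taste receptor gene Tas1r2, scored 3.27 ± 0.27 in control, and Klhdc7a, 129 kb above, scored 2.46 ± 0.16 (SD, n = 2 each). On that higher side deletion 2 stood apart, with 1.39 at 400 kb from the midpoint where the other profiles had 2.04 to 2.45.

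Of the 3 pairs of related genes, the DM domain genes had the widest gap in timing score by the mean of each genotype. Dmrta2 (chromosome 4, 109977989 to 109983691) scored 1.20 and 1.49 in the controls and 1.43 and 1.51 in the deletion profiles. Dmrta1 (chromosome 4, 89688198 to 89694766) scored -2.78 and -2.15 in the controls and -3.16 and -2.41 in the deletion profiles. Dmrta1 was later than 95.8% of the genes of the chromosome in control. Within each profile Dmrta2 scored higher than Dmrta1 by 3.64 to 4.59. Each lay near a crossing of 0 of its own, Dmrta2 on the early side and Dmrta1 on the late side. Dmrta2 sat on the early side of a long descent, which crossed 0 at 237 to 312 kb above the gene's midpoint and reached -3.29 and -2.58 in control at 800 kb. Its neighbours on this descent were Faf1, 14.0 kb below, at 1.32 ± 0.10 in control, and the neuronal RNA-binding protein gene Elavl4, 220 kb above, at -0.030 ± 0.24 (SD, n = 2 each). The midpoint of Dmrta1 lay 269 to 369 kb above the nearest crossing. Beyond that crossing the scores were not far from 0. In control they were 0.25 and 0.15 at 400 kb below the midpoint and -0.40 and -0.24 at 600 kb below it. The cell cycle inhibitor gene Cdkn2b, 377 kb below Dmrta1, scored 0.19 ± 0.11 in control, and Zfp352, 524 kb above Dmrta1, scored -2.69 ± 0.15 (SD, n = 2 each).

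**Figure D3:**
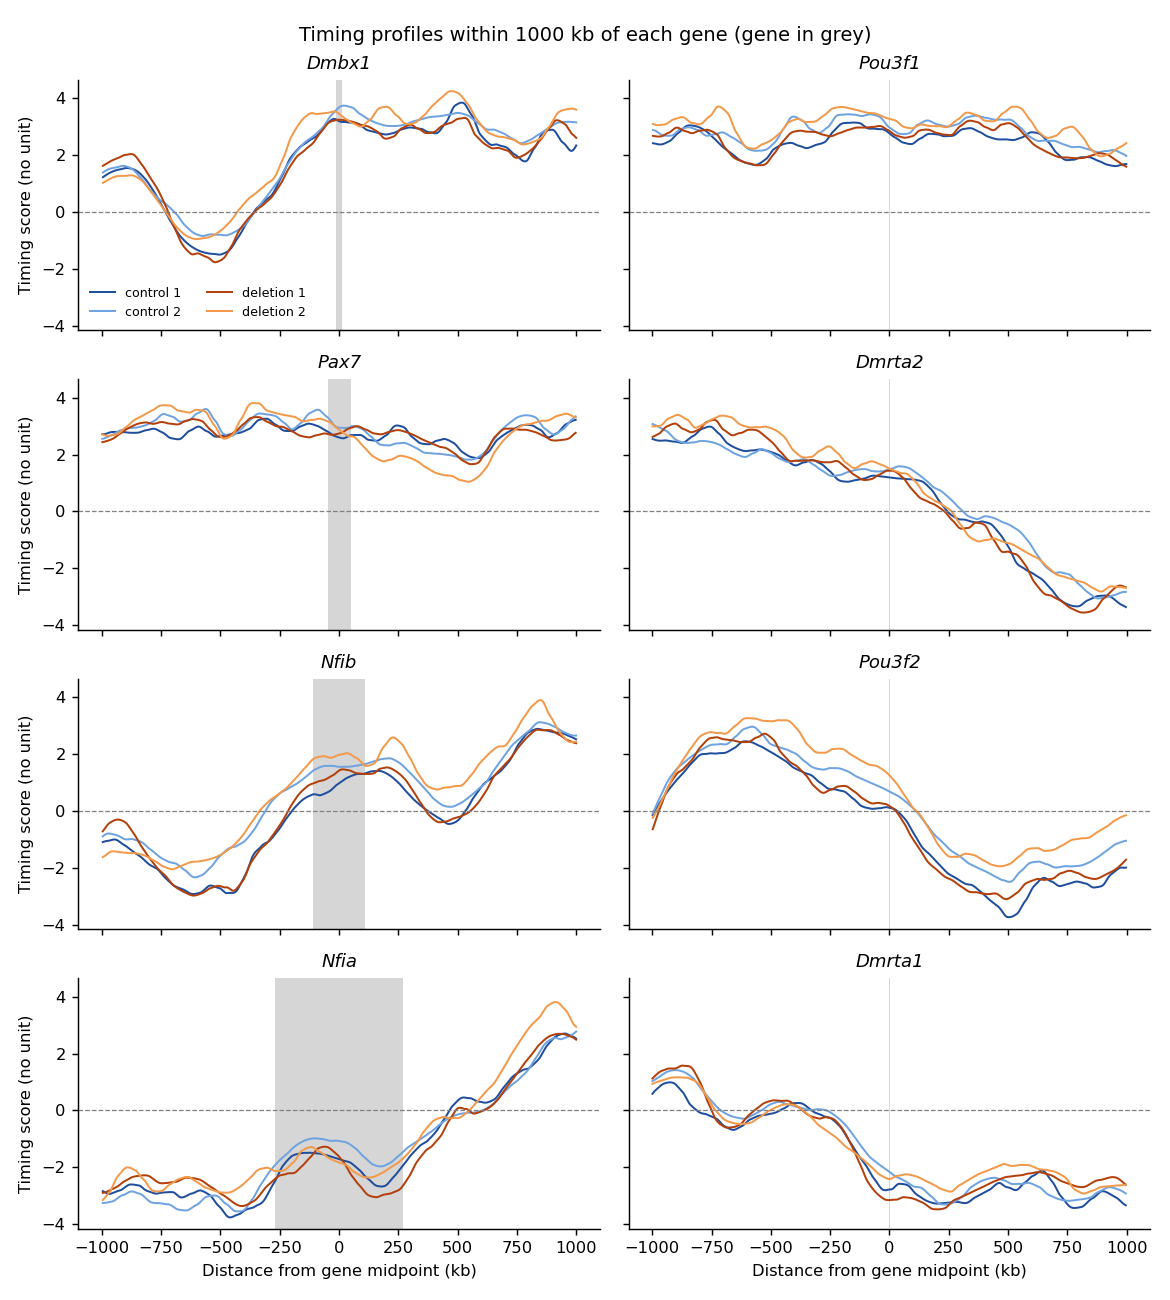
Timing score (vertical axis, no unit) within 1000 kb of the midpoint of each gene (horizontal axis, kb), 1 line per profile and the gene shaded in grey. Pou3f1 and Pax7 lie inside early plateaus, Dmbx1 at the edge of 1, Dmrta2, Nfib and Pou3f2 on early shoulders or slopes next to late DNA, and Nfia and Dmrta1 in late DNA.

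The sequence just upstream of the start site is shown for the earliest gene, the longest late gene and the DM domain pair, because timing is compared there with a sequence feature that the choice of genes did not use. The 250 bases before the start of a RefSeq transcript (GRCm38.p6) were read 5′ to 3′ on the gene's strand, with every CG dinucleotide in capitals. RefSeq's promoter table held 6 of the 8 genes.
Dmbx1, chr4:115939927-115940176, minus strand: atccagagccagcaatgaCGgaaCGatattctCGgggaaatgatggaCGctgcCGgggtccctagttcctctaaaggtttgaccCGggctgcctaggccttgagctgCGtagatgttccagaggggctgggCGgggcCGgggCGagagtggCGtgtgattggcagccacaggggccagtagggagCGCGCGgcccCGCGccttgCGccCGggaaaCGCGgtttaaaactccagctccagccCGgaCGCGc
Nfia, chr4:97581693-97581942, plus strand: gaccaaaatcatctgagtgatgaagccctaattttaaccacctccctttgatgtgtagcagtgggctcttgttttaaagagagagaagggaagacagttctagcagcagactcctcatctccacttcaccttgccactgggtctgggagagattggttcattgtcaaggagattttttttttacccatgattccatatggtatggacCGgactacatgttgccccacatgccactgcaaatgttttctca
Dmrta2, chr4:109977775-109978024, plus strand: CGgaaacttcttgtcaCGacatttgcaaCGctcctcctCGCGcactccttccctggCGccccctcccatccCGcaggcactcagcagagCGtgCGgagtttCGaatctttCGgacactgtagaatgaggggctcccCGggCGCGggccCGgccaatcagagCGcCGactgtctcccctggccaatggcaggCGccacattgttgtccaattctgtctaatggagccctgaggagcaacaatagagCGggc
Dmrta1, chr4:89687948-89688197, plus strand: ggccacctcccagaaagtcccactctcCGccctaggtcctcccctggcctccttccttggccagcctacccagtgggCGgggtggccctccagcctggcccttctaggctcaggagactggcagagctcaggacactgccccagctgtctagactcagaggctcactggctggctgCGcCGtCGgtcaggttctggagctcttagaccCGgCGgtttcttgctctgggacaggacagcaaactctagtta
The start sites of these transcripts lie within 0.671 kb of the gene's end given above for Dmbx1, Dmrta1 and Dmrta2, and 3.88 kb inside the gene for Nfia.

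Upstream CG content was higher in the 4 early than in the 2 late genes of the table. CG dinucleotides, which read the same on both strands, numbered 23 at Dmbx1, 19 at Dmrta2, 18 at Pou3f2 and 13 at Pax7, all early genes. The late genes had 7 at Dmrta1 and 1 at Nfia. The GC content was 44.8% at Nfia and 61.6% to 66.8% at the other 5 genes. Over 1367 such windows of 1067 genes of the chromosome, 96.6% held at least 1 CG and the median was 11. It was 13 over 1151 windows of genes early in the controls and 2 over 216 windows of late genes. A window of Nfia with a single CG was therefore low also for the chromosome, where 3.44% of windows had fewer. These counts describe 1 listed transcript per member, and other starts were not examined. The score of the bin at the listed start of Nfia was -2.42 and -1.89 in the controls and -2.38 and -2.13 in the deletion profiles, lower than that of the whole gene in control.

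The genes also differed in how many neighbours they had. Within 500 kb of either end lay 25 other protein-coding genes at Dmbx1, 17 at Pou3f1, 11 at Pax7, 5 at Dmrta2, 3 at Nfib and 2 each at Pou3f2, Nfia and Dmrta1. The median over all 1301 genes was 17. Just 59 genes (4.53%) had 3 or fewer such neighbours, and among the 1037 genes early in every profile it was 9 (0.868%). Nfib and Pou3f2 were among these 9. Among the 216 genes late in every profile, which include Nfia and Dmrta1, 44 (20.4%) had 3 or fewer. The limit of 3 was set after the counts were seen. In the 500 kb around Pou3f1 and Pax7 all positions were early in all profiles. Around Nfia 11.0% to 19.7% of positions were early, around Dmrta1 13.4% to 23.8%, around Pou3f2 52.5% to 61.4% and around Nfib 52.5% to 77.5%, where the range is over the 4 profiles.

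**Figure D4:**
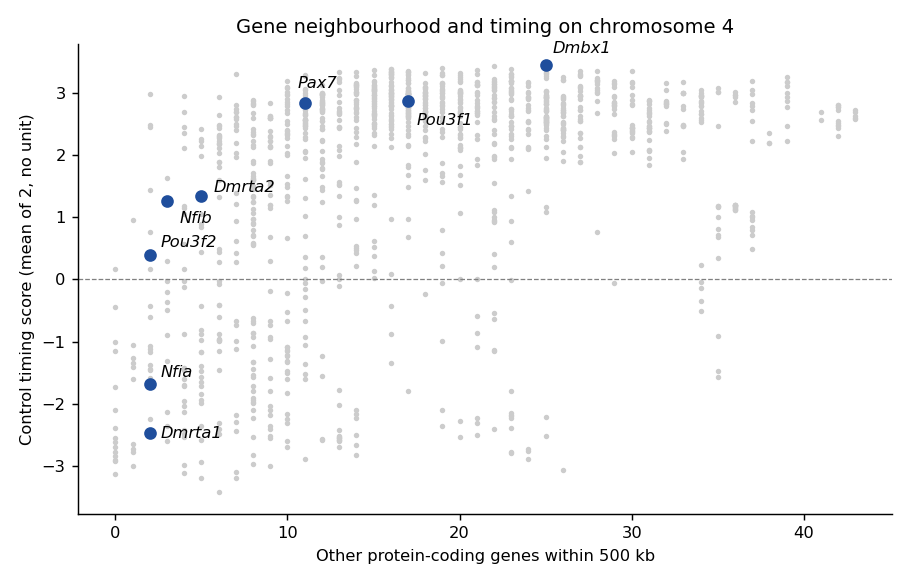
Control timing score (vertical axis, mean of 2 profiles, no unit) against the number of other protein-coding genes within 500 kb (horizontal axis) for 1301 genes in grey, with the 8 genes named. Pou3f2, Nfib, Nfia and Dmrta1 have 3 or fewer neighbours and control scores from -2.47 to 1.26, and Dmbx1 has 25 and a score of 3.44.

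Loss of the Klf4 enhancer was then compared with control at each gene. None of the 8 genes passed the test (limma, Benjamini-Hochberg over 1301 genes, adjusted p = 0.999 for all 8), and none had an unadjusted p under 0.05. Of the 1301 genes, 0 (0%) passed in that fit and 17 (1.31%) had an unadjusted p under 0.05. The scores of both genotypes overlapped at 8 of 8 genes. Over all genes the deletion profiles scored above both controls in 15.1% and below them in 6.53%. A p that misses the threshold does not show that timing was the same, since the number 2 profile scored above the number 1 profile at 8 of 8 genes in each genotype, and that spread counts as error in the test. Over all genes this held for 1084 in the controls and 1085 in the deletion profiles.

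The differences, deletion minus control, were of both signs. They were 0.32 at Nfib (SE 0.35), 0.32 at Pou3f2 (SE 0.37), 0.20 at Pou3f1 (SE 0.34) and 0.13 at Dmrta2 (SE 0.34). They were -0.0057 at Pax7 (SE 0.34), -0.10 at Dmbx1 (SE 0.34), -0.32 at Dmrta1 (SE 0.36) and -0.38 at Nfia (SE 0.35). These SEs come from the limma fit, which pools the spread over all genes. The median difference of all positions was 0.16, a shift toward higher scores in the deletion profiles as deposited. Relative to that shift 3 of the 8 genes were positive and 5 negative, and the Dmrta2 difference became -0.026. Quantile normalization likewise turned it to -0.12, with the same split. With each profile centred on its own median, which removes a shift of 0.11, Dmrta2 stayed positive at 0.019 and the split was 4 to 4, as in the deposited scores. The median difference of the 8 genes was 0.062, against 0.14 over all genes. Scaling also moved the largest differences. Nfia stood at -0.49 with median centring and -0.46 after quantile normalization, and Nfib at 0.21 and 0.078.

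The lowest differences of the 8 were those of the late genes. Nfia ranked 26 and Dmrta1 56 of 1301 genes, counted from the lowest difference. Both were negative within each replicate number. At Nfia it was -0.28 for number 1 and -0.48 for number 2, and at Dmrta1 it was -0.37 and -0.26. The direction at Dmrta1 turned when deletion replicate 1 was left out (0.056), and that at Nfia held without any single profile, from -0.65 to -0.11. Late DNA beside both genes did not share this sign throughout. The neighbour Gm12695, below Nfia, differed by 0.17, and Zfp352, above Dmrta1, by 0.57. Tm2d1 and Cdkn2b, the neighbours on the other sides, differed by -0.22 and -0.082. In 50 kb windows the difference was 0.38 at 500 kb below the midpoint of Nfia and 0.49 at 500 kb above that of Dmrta1. On the other sides it was -0.21 and 0.13. Nfib was higher in the deletion profiles by 0.32 and 0.33 within the numbers, while Pou3f2 differed by 0.064 in number 1 and by 0.58 in number 2 and turned to -0.22 without deletion replicate 2. At Pou3f1, at 0.087 and 0.31 within the numbers, the difference was -0.015 without deletion replicate 2. Dmrta2, with 0.24 and 0.023, turned to -0.014 without control replicate 1. With a single profile left out, the genotypes no longer hold the same replicate numbers. The spread between numbers therefore also enters those differences. Dmbx1 and Pax7 had opposite signs within the 2 numbers.

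Single positions showed the same at finer scale. Of the 187 positions that overlap the 8 genes, 0 passed the test by limma and 0 had an unadjusted p under 0.05. Of all 30659 positions 0 (0%) passed and 299 (0.975%) had such an unadjusted p. Along Nfia the difference was negative at 109 of 109 positions, from -0.68 to -0.054. Over the chromosome 29.0% of positions had a negative difference. Both deletion profiles lay below both controls at 37 of the 109 positions (33.9%), against 5.86% of all positions. Whether the authors smoothed the scores is unknown. Adjacent positions of 1 gene cannot be taken as independent, so these 109 positions should not be counted as 109 separate measurements.

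The difference along Nfia was uneven. The gene was cut into 5 equal parts. In the first 108 kb the scores were -1.82 and -1.50 in the controls and -2.22 and -1.94 in the deletion profiles, with no overlap. From 108 to 216 kb, the part that holds the inner peak of all 4 profiles, they were -1.51 and -1.02 in the controls and -1.56 and -1.40 in the deletion profiles, and they overlapped. From 216 to 324 kb they overlapped as well, at -1.72 and -1.10 in the controls and -1.70 and -1.84 in the deletion profiles, and the number 1 profiles differed by 0.018. From 324 to 433 kb they were -2.29 and -1.65 in the controls and -2.81 and -2.30 in the deletion profiles, with a difference of means of -0.58 and deletion 2 just below control 1. In the last part they overlapped, at -2.42 and -1.79 in the controls and -2.89 and -2.01 in the deletion profiles. Thus 3 of the 5 parts overlapped. The parts were compared as a description with no test. None of the other 7 genes had a position at which both deletion profiles lay on the same side of both controls, beside 16% of all positions above and 5.86% below.

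**Figure D5:**
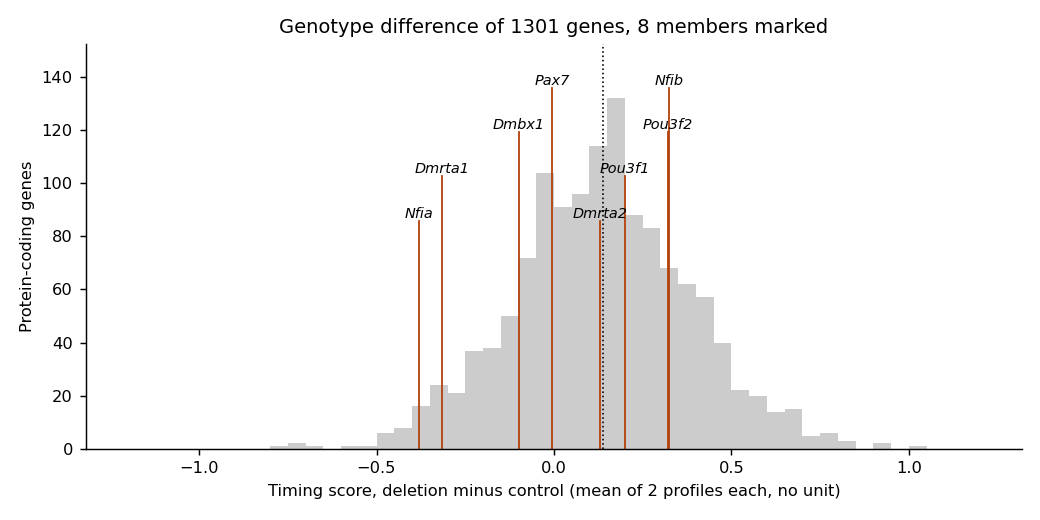
Number of protein-coding genes (vertical axis) by timing score in deletion minus control cells (horizontal axis, mean of 2 profiles each, no unit), with the 8 genes as red lines and the median of all genes, 0.14, as a dotted line. The 8 genes lie between -0.38 (Nfia) and 0.32 (Nfib and Pou3f2), inside the range of the 1301 genes.

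Other neural and neural crest regulators of the chromosome were mostly early, as were most of its genes. Of a list of 14, 13 were early in all 4 profiles and 1, Hivep3, changed sign between profiles, and none was late in all. Their median control score was 2.44, against 2.49 over all genes, of which 79.7% were early in every profile. Hes5, a Notch effector of neural progenitors, was the earliest at 3.26 ± 0.21 in control, and Rere, a gene of retinoid signalling in the embryo, followed at 2.88 ± 0.45 (SD, n = 2 each). The lowest control scores were those of Hivep3, a zinc finger gene, at -0.24 ± 0.18, and Camta1, a long neuronal gene of 802 kb, at 0.76 ± 0.0054 (SD, n = 2 each). Hivep3, the lowest of the list, scored above Nfia and Dmrta1 in each of the 4 profiles.

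None of the 14 passed the test (limma, adjusted p = 0.999 for all 14), and none had an unadjusted p under 0.05. Both deletion profiles scored above both controls at 6 of the 14 genes and below them at 1, beside 15.1% and 6.53% of all genes. The highest differences were those of Prdm13, a spinal cord and retina factor at 2.03 ± 0.11 in the controls and 2.38 ± 0.28 in the deletion profiles, and Casz1, at 2.62 ± 0.15 and 2.96 ± 0.04 (SD, n = 2 each). The lowest were -0.13 at Hes3 and -0.11 at Dmrtb1, a relative of Dmrta1 and Dmrta2. Dmrtb1 differed by -0.30 in number 1 and by 0.080 in number 2. The median difference of the list was 0.20, or 11 genes positive and 3 negative, and relative to the median shift of positions 9 were positive and 5 negative. The split was 10 to 4 with each profile centred on its own median and 8 to 6 after quantile normalization.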

How the data were processed

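Repli-seq timing scores of chromosome 4 were analysed from 1 deposited table with 4 profiles, each made by the authors from an early and a late library. Per the submitters' processing notes, Bowtie2, SAMtools and bedtools were used on mm10, with no versions given. The score was scaled to a common interquartile range, per the file headers and name, and its log base and smoothing are not given in the sources used here, while the plan had assumed log ratios; the planned tests were run on the scores.

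Positions were taken as starts of 5 kb bins, and 30659 of 31301 had a score in every profile. Gene scores (mean of overlapping bins) were compared, deletion minus control, in R 4.3.3 by limma 3.58.1, using lmFit and eBayes, over 1301 genes and over all positions; p-values were two-sided, adjusted by Benjamini-Hochberg and held to 0.05. Only the gene fit was checked by simulation, on gene scores with independent errors. That setting lacks the deviations shared by equally numbered profiles, and the position fit was not checked. Gradients were least-squares slopes, compared by exact permutation. Labels do not say whether profiles come from separate cultures, so the spread may be technical. The genes, lists and tests were chosen with earlier results of these data known. Named genes were the 8, their nearest scored protein-coding neighbours, the 2 highest and 2 lowest of the 14 other regulators by control score and by difference, and Klf4. Alternatives were median centring, quantile normalization, the replicate number as a block, each profile left out, positions as bin ends, wider or midpoint bins, limma's trend and robust options and the roughest 1% of bins left out.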

Additional observations from a re-analysis of the deposited data

How the results depend on the processing

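Over genes, the number called stayed at 0 under every alternative except without deletion replicate 1, where 4 were called, a range of 0 to 4 with single profiles left out. Over positions it was 785 with the replicate number as a block and 0 to 57 with single profiles left out, the 57 without deletion replicate 2, and 0 otherwise. No gene of the 8 was called under any alternative. No gene or position of the 8 was called with the block, under which 0 genes were called. Deviations of equally numbered profiles correlated at 0.637 over positions, but the labels do not state pairs. With single profiles left out, differences ranged from -0.015 to 0.41 at Pou3f1, -0.22 to 0.86 at Pou3f2, -0.65 to -0.11 at Nfia, 0.010 to 0.64 at Nfib, -0.19 to 0.18 at Pax7, -0.34 to 0.14 at Dmbx1, -0.69 to 0.056 at Dmrta1 and -0.014 to 0.27 at Dmrta2. With a profile left out the genotypes no longer hold the same replicate numbers, so those ranges also include the spread between numbers. The sign also turned at Pax7 (0.034) with the midpoint bin and at Dmrta2 (-0.12) after quantile normalization. The cause was not tested. Gradient differences ranged over -0.097 to 0.045 along Nfia, -0.38 to 0.018 along Nfib and -0.36 to 0.50 along Pax7. The files hold no counts, so no limit from depth can be given.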
